A study of Mus musculus with 29 samples.

Results

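The livers of young vehicle-treated female (F) and male (M) mice were compared gene by gene, to describe how far the liver differs between the sexes before any drug is given. The comparison held 9 mice, 5 young vehicle females and 4 young vehicle males, out of 27 mice with a gene count column and 29 mice with labels. All 9 were chosen by their sex, age and treatment labels alone, and the description was restricted to genes on the autosomes, which numbered 50970 of the 55421 genes in the count table. The young mice were labelled C57BL6/N and 5 months old, and both sexes had received vehicle, phosphate-buffered methylcellulose without drug, by daily gavage for 14 days before the livers were collected in the morning. Whole liver was used, so that each value is an average over hepatocytes and all other cells of the organ, and 1 library was made per mouse from polyadenylated RNA.

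For comparison, 4 old vehicle females, labelled 20 months, and 4 old vehicle males with counts, labelled 24 months, had received the same vehicle. The old mice were labelled C57BL/6J, so age and substrain cannot be told apart between the young and the old groups, and within the old groups sex goes together with a difference in age. Young male 5 and old male 1 have labels but no count column here, and for these mice only FPKM values (a length-scaled and depth-scaled unit computed by the authors) could be read. According to the study's methods, a young male was left out of its analysis because of an open wound and suspected infection, and the labels do not say which animal it was.

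The mouse liver is a sexually dimorphic organ. The pituitary releases growth hormone in pulses in males and almost continuously in females, and these patterns reach the hepatocyte through the growth hormone receptor, the kinase JAK2 and the transcription factor STAT5B. Repressors such as BCL6, which acts mainly in males, and CUX2, which is made in females, are known to reinforce the sex pattern. The classical targets are secreted and metabolic proteins: major urinary proteins (MUPs), which carry pheromones in male urine, and cytochrome P450 enzymes, sulfotransferases and transporters that act on steroids, bile acids, fatty acids and drugs.

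Of 13451 autosomal genes with enough counts to be tested, 1414 differed between the sexes at a false discovery rate (FDR) under 0.05, which is 10.5% of those tested. Of these, 758 (5.64% of genes tested) were higher in females and 656 (4.88%) were higher in males. The counts of list members below can be read against these shares. The test was edgeR's quasi-likelihood test on the counts, with Benjamini-Hochberg adjustment over all genes tested, and a gene that passed it is called here. The changes were of very unequal size. The median absolute log2 fold change of the called genes was 0.72, whereas 264 genes higher in females and 158 higher in males differed by at least 1 on the log2 scale, and 32 and 27 genes by at least 4. Log2 fold changes are given as female over male throughout, so that a negative value is a gene higher in males. Without any overlap between the 5 females and the 4 males, 1166 of the called genes were separated, 632 of them higher in females and 534 higher in males, against 1741 genes (12.9%) without overlap among all genes tested. In fits that left out 1 mouse at a time, 735 to 1808 genes were called; 628 of the 1414 genes, 369 higher in females and 259 higher in males, were called in all 9 of these fits. The count fell by more than 1.5 times without male 3 (900), male 4 (735), female 2 (925) or female 5 (903). On the authors' FPKM values, tested with limma, 701 genes were called, and 66.5% of them were higher in females against 53.6% in the count test.

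**Figure D1:**
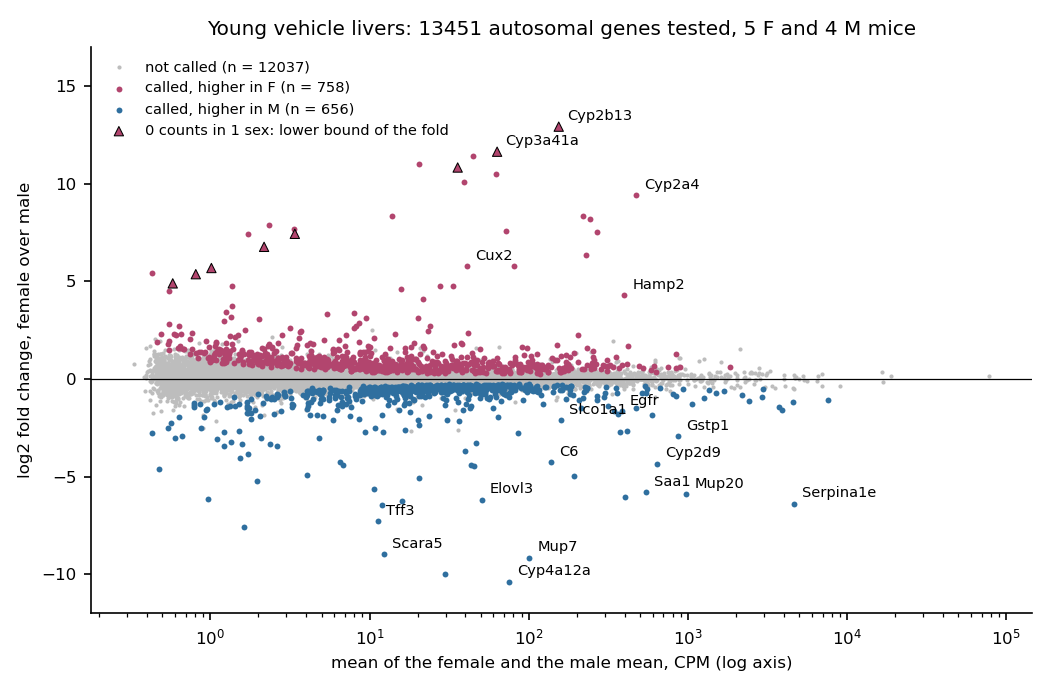
Mean expression in CPM (read counts scaled to a common library size, log axis) against the log2 fold change of females over males for the 13451 autosomal genes tested in young vehicle livers. Coloured points are the 758 genes called higher in females and the 656 called higher in males. Triangles mark genes with no counts in 1 sex, drawn at the lower bound of their fold change. The named genes include cytochromes P450 and MUPs, together with genes of other families.

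The libraries themselves were alike. They held 17069454 to 21338522 counts in females and 17783844 to 22523294 in males, and total counts, the share of the 10 most abundant genes, the number of genes detected and the mitochondrial share did not differ between the sexes by exact two-sided permutation tests (p from 0.333 to 0.825; the smallest p that 5 against 4 mice allow is 0.00794), which does not show that they were equal. The X-linked Xist lay between 403 and 498 CPM in females and at most at 0.313 CPM in males, and the Y-linked Ddx3y had no count in females, so all 9 mice matched their sex labels. Nnt, of which C57BL/6J mice are known to carry a copy with a deletion, was low at both ages, at 2.18 to 4.32 CPM in the young mice labelled C57BL6/N and 1.59 to 2.88 CPM in the old mice labelled C57BL/6J, so its counts did not set the labelled substrains apart. Nothing in the labels says more of these mice than that they are separate animals, and litter and cage are not given.

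Some of the strongest differences lay between genes whose neighbouring copies did not differ to the same extent. Cyp2b9 and Cyp2b13 are cytochromes P450 of the 2B family, Cyp2a4 and Cyp2a5 are hydroxylases of steroids and coumarin, and Hamp and Hamp2 encode the iron hormone hepcidin and its paralog. Bases just before the start of each gene are shown for these 3 pairs, because the members of a pair are nearly identical there while their values differ between the sexes to an unequal extent, or in the first pair to a similar one. The sequences are from RefSeq (build GRCm38.p6), read 5′ to 3′ on the strand of the gene, and capitals mark the bases that differ within a pair.
Cyp2b9, chr7:26173159-26173408, plus strand: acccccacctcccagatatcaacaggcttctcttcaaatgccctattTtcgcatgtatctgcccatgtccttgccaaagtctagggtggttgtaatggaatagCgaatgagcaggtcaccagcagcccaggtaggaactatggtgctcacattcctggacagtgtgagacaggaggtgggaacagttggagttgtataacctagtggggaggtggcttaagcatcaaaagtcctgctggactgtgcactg
Cyp2b13, chr7:26061245-26061494, plus strand: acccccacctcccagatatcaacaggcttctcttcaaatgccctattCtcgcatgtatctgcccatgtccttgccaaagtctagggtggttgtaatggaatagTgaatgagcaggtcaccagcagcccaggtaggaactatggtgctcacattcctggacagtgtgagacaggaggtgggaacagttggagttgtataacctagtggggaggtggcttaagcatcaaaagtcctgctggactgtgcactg
Cyp2a4, chr7:26306942-26307157, plus strand: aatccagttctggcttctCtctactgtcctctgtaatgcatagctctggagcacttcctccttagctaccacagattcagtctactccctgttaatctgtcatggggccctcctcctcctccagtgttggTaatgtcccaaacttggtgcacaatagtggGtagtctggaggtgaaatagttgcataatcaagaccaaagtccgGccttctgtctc
Cyp2a5, chr7:26835089-26835304, plus strand: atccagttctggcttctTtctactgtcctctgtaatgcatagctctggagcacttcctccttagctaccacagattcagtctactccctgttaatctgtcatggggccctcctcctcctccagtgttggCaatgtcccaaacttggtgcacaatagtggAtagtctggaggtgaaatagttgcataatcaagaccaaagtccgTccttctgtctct
Hamp, chr7:30944033-30944279, minus strand: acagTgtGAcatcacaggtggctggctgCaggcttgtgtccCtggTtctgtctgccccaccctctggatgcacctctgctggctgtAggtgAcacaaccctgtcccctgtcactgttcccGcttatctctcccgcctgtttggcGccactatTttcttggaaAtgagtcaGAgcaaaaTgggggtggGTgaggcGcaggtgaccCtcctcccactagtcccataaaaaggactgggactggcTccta
Hamp2, chr7:30924185-30924431, minus strand: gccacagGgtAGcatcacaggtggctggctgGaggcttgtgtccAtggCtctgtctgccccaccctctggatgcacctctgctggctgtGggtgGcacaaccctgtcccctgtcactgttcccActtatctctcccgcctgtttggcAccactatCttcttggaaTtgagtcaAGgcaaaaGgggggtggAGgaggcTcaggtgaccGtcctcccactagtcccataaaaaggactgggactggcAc

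The windows of Cyp2b9 and Cyp2b13 were identical in 248 of 250 bases (99.2%), and both genes were high in females and close to absent in males. Cyp2b13 (chromosome 7, 26061497 to 26096197, plus strand) measured 308, 232, 293, 369 and 339.9 CPM in females 1 to 5 and had no count in any male, so that it was at least 7760-fold higher in females if 3 counts over the 4 males are taken as the limit of a count of 0. Cyp2b9 (chromosome 7, 26173411 to 26210661, plus strand) measured 471, 389, 502, 414 and 408 CPM in females and 4.70, 1.00, 0 and 0 CPM in males 1 to 4 (log2 fold change 8.34, SE 0.82, adjusted p = 6.24e-05). All females exceeded all males by far in both genes, and males 3 and 4 had no count of either. Because the copies are so alike, reads may be shared or lost between them, and this holds for all the P450, sulfotransferase, MUP and serpin copies below.

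Cyp2a4 and Cyp2a5 were identical in 211 of 215 aligned bases (98.1%) of their upstream windows, which were 216 bases long after the bases inside annotated exons had been removed. Cyp2a4 (chromosome 7, 26307169 to 26315088, plus strand) measured 1290, 1504, 668, 279 and 966 CPM in females and 0.833, 0.279, 3.75 and 0.671 CPM in males (log2 fold change 9.41, SE 0.77, adjusted p = 1.13e-05). The females spread over a wide range, with female 4 lowest, but none came near a male. Cyp2a5 (chromosome 7, 26835305 to 26843548, plus strand) measured 1775, 982, 980.4, 732 and 1481 CPM in females and 1062, 381, 344 and 489 CPM in males. Here male 1 lay within the female range, and the difference did not pass edgeR's test with all mice (log2 fold change 1.07, SE 0.34, adjusted p = 0.0655). It passed without male 1 (log2 fold change 1.56, adjusted p = 0.00383), with the replicate number as a block (adjusted p = 0.0126) and without the filter on low counts (adjusted p = 0.00529).

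Hamp and Hamp2 had 224 of 244 aligned bases (91.8%) in common in windows of 247 bases. Hamp2 (chromosome 7, 30922372 to 30924681, minus strand) measured 865, 608, 545, 854 and 918 CPM in females and 57.7, 34.7, 35.9 and 28.4 CPM in males (log2 fold change 4.28, SE 0.25, adjusted p = 4.54e-07), and the sexes did not overlap. Hamp (chromosome 7, 30942368 to 30944032, minus strand) measured 1462, 837, 1011, 963 and 1013 CPM in females and 1388, 618, 978 and 1482 CPM in males, which overlapped over their whole range (log2 fold change -0.07, SE 0.24, adjusted p = 0.874). The Hamp2 window lies within an intron of a longer annotated transcript of that gene. Both windows hold the STAT consensus TTCNNNGAA, which reads the same on both strands, as ttcttggaa, starting 97 bases before the RefSeq start of Hamp and 94 bases before that of Hamp2, which lie 3 bases past the ends of the printed windows; the motif occurs in 8.13% of the 27025 genes with such a window. Cyp2a5 and Hamp were chosen for display as the copies of Cyp2a4 and Hamp2, after their values were seen.

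Among 24 tested members of the growth hormone and STAT5 signalling list, 3 were called higher in females and 3 higher in males. This was 12.5% in each direction, against 5.64% and 4.88% of all genes tested. The median log2 fold change was 0.05 against -0.004 over all genes tested. The central components did not pass edgeR's test with all 9 mice. The growth hormone receptor Ghr ranged from 438 to 527 CPM in females and from 442 to 509.6 CPM in males (log2 fold change 0.05, SE 0.10, adjusted p = 0.771). The same held for Jak2 (-0.03, adjusted p = 0.919), Stat5a (0.07, adjusted p = 0.823) and the secreted growth factor Igf1 (0.003, SE 0.14, adjusted p = 0.992). Stat5b measured 63.7, 69.0, 89.5, 81.4 and 69.1 CPM in females and 48.4, 75.9, 46.5 and 40.2 CPM in males, with male 2 inside the female range (log2 fold change 0.50, SE 0.17, adjusted p = 0.0805). Stat5b was called by DESeq2 (adjusted p = 0.0446), without male 2 (adjusted p = 0.00497), without the filter on low counts (adjusted p = 0.0359) and with all 6 groups in 1 fit (adjusted p = 0.0211).

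Receptors for other ligands were called within the same list. Lepr, the leptin receptor, measured 12.5, 22.03, 9.72, 10.04 and 13.8 CPM in females and 6.61, 4.47, 4.88 and 4.96 CPM in males (log2 fold change 1.39, SE 0.24, adjusted p = 0.00361). Prlr, the prolactin receptor, measured 291, 224, 306, 203 and 211 CPM in females and 78.0, 93.1, 186 and 102 CPM in males (log2 fold change 1.11, SE 0.23, adjusted p = 0.012). Egfr, the receptor for epidermal growth factor, had the opposite direction, with 154, 290.0, 274, 129 and 89.0 CPM in females and 553, 481, 518 and 763 CPM in males (log2 fold change -1.63, SE 0.30, adjusted p = 0.00635). In all 3 receptors the 2 sexes were separated without overlap, and on FPKM values Lepr was not called (adjusted p = 0.102).

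The feedback inhibitors of cytokine and growth hormone signalling, which are themselves induced by these signals, were less evenly separated. Socs3 was higher in males, at 4.62, 4.05, 6.99, 4.74 and 3.94 CPM in females and 9.23, 11.6, 8.79 and 8.59 CPM in males (log2 fold change -0.97, SE 0.18, adjusted p = 0.0056), and was not called on FPKM values (adjusted p = 0.0573). Socs2 measured 15.5, 16.98, 44.4, 9.76 and 9.74 CPM in females and 54.3, 4.47, 38.1 and 61.0 CPM in males, and male 2 lay below all females (log2 fold change -1.03, SE 0.59, adjusted p = 0.279). Cish measured 31.6, 10.7, 27.8, 11.1 and 14.6 CPM in females and 69.5, 16.6, 18.1 and 45.2 CPM in males, again with overlap (log2 fold change -0.96, SE 0.44, adjusted p = 0.181). Socs1 was too low to be tested. The phosphatase gene Ptpn11 was higher in males by a small amount (-0.34, adjusted p = 0.022), and the call was lost without any of males 3 and 4 or female 1 (adjusted p up to 0.0794). The call of Igfbp2, a binding protein for insulin-like growth factors that was higher in females (0.79, adjusted p = 0.027), was lost without male 4 or any of females 1, 4 and 5 (adjusted p up to 0.0729).

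Tested were 30 transcription regulators with a known link to sex-biased liver expression or to hepatocyte identity. Of these, 6 were called higher in females and 4 higher in males. The shares were 20.0% and 13.3%, against 5.64% and 4.88% of all genes tested. Cux2, the female-expressed repressor, was the largest of these differences, with 88.1, 102, 50.9, 33.5 and 125.8 CPM in females and 1.43, 0.223, 3.21 and 0.984 CPM in males (log2 fold change 5.78, SE 0.56, adjusted p = 4.91e-05). Even the lowest female, number 4, lay far above the highest male. Trim24, a cofactor of nuclear receptors, measured 69.1, 80.2, 50.6, 48.5 and 66.1 CPM in females and 31.3, 18.6, 24.2 and 27.2 CPM in males (log2 fold change 1.31, SE 0.18, adjusted p = 6.76e-04). Nr1i3, which encodes the xenobiotic receptor CAR, measured 235, 147, 168, 196 and 191 CPM in females and 147, 79.96, 73.6 and 62.5 CPM in males (log2 fold change 1.05, SE 0.23, adjusted p = 0.0136), and male 1 was level with the lowest female. Cebpb, a transcription factor of the acute and metabolic response, was also higher in females (log2 fold change 0.87, SE 0.20, adjusted p = 0.0163).

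On the male side, Zfp809, a zinc finger repressor of retroviral elements, measured 13.1, 15.8, 13.5, 15.9 and 14.6 CPM in females and 21.3, 28.1, 25.1 and 31.3 CPM in males (log2 fold change -0.86, SE 0.12, adjusted p = 9.96e-04). The nuclear receptor Rora was higher in males by a smaller amount (log2 fold change -0.40, SE 0.08, adjusted p = 0.0118). These 6 regulators were called in all 9 fits without 1 mouse, and on FPKM values Rora was not called (adjusted p = 0.0779). Onecut1 (-1.61), Foxa3 (-0.95), Tox (1.04) and the oestrogen receptor gene Esr1 (1.03) were also called. Onecut1 lost its call without any of males 1 and 4 or any of females 1, 2, 4 and 5 (adjusted p up to 0.145) and Foxa3 without any of males 3 and 4 or any of females 1, 2 and 4 (adjusted p up to 0.0887). Tox lost it without any of males 2, 3 and 4 or any of females 1 and 2 (adjusted p up to 0.107) and Esr1 without any of males 1, 2 and 4 or any of females 1, 2 and 5 (adjusted p up to 0.0871). Bcl6 measured 14.1, 41.5, 12.2, 16.3 and 21.8 CPM in females and 9.29, 14.4, 25.6 and 9.17 CPM in males, overlapping widely (log2 fold change 0.54, SE 0.38, adjusted p = 0.388), and Hnf4a, a master regulator of the hepatocyte, did not pass the test either (log2 fold change -0.22, SE 0.13, adjusted p = 0.285).

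**Figure D2:**
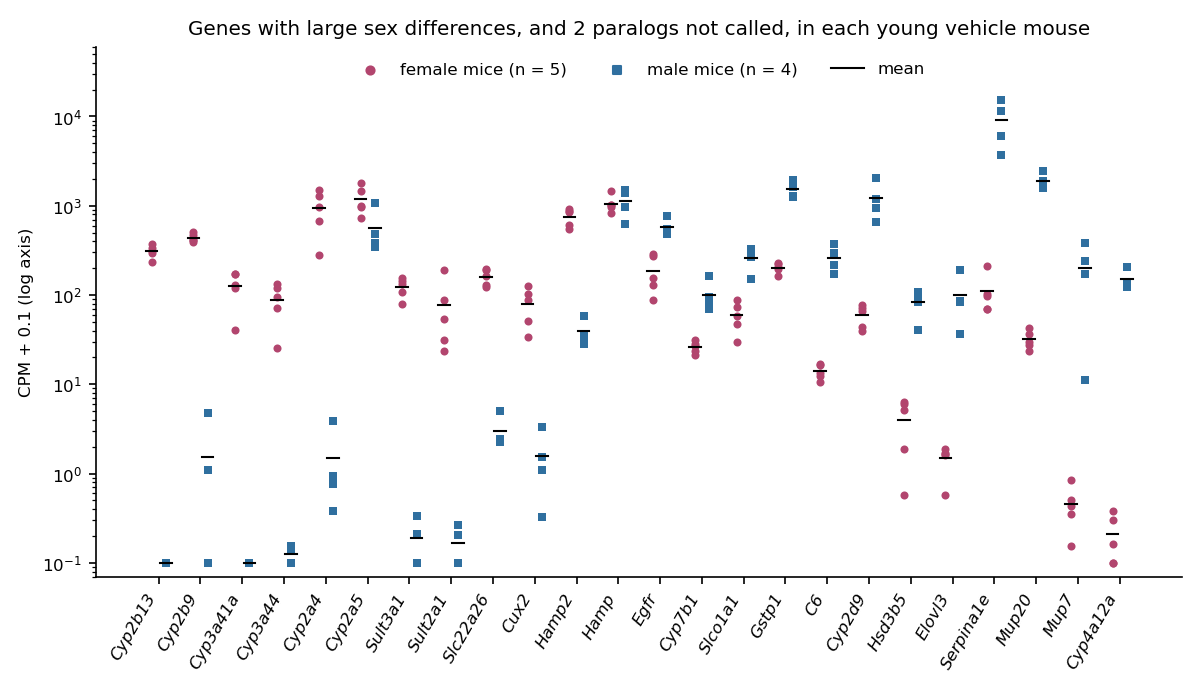
CPM plus 0.1 (log axis) of 24 genes in each of the 5 young vehicle females and 4 young vehicle males; points are mice and short lines are group means. Hamp and Cyp2a5 overlap between the sexes, and all points of the other genes in the plot lie on separate sides.

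Lists of genes known from the literature as sex-biased were used to see how completely the classical pattern was present. Of 47 female-biased genes tested, 38 were called higher in females and none higher in males, and all 47 had a log2 fold change above 0, with a median of 2.63. Of 38 male-biased genes tested, 27 were called higher in males and 2 higher in females, with a median of -2.38. These lists were drawn up with the values of these mice known, so the counts are a description. The 2 exceptions were Hsd11b1, which reactivates glucocorticoids, and Gstp3, a glutathione transferase. In 8 lists with no edgeR call in 1 direction (female-biased, MUP, sulfotransferase, flavin monooxygenase, sterol, pericentral, interferon and Kupffer cell genes), no member passed an unadjusted p under 0.05 in that direction and DESeq2 called none. Hsd11b1 was only slightly higher in females (log2 fold change 0.47, SE 0.14, adjusted p = 0.0498) and lost its call without any of males 2, 3 and 4 or any of females 1, 2, 3, 4 and 5 (adjusted p up to 0.139). Gstp3 measured 37.1, 45.6, 24.6, 37.3 and 39.5 CPM in females and 27.7, 11.6, 14.2 and 11.4 CPM in males (log2 fold change 1.19, SE 0.26, adjusted p = 0.0134).

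**Figure D3:**
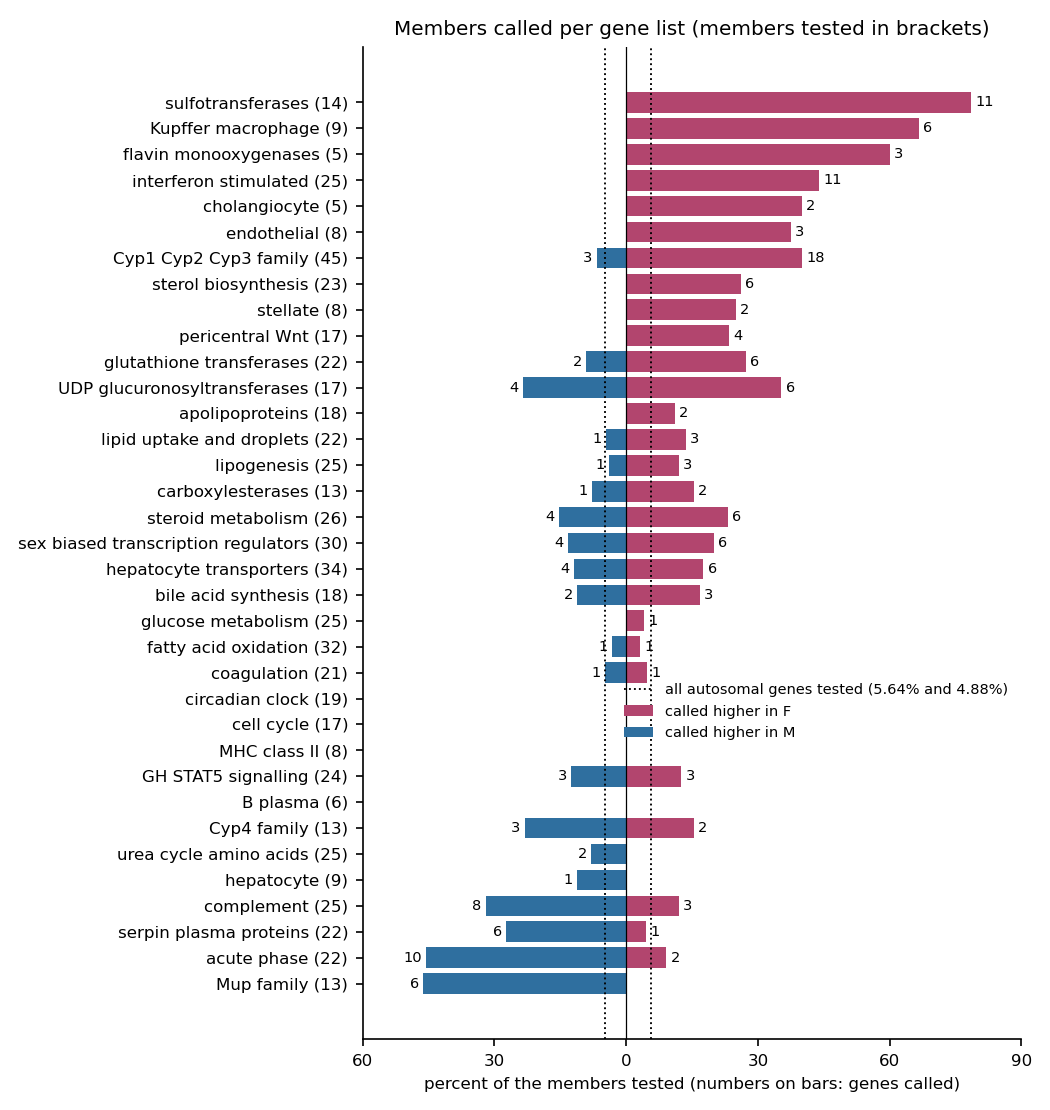
Percent of the tested members of each gene list called higher in females (bars to the right) or higher in males (bars to the left) in young vehicle livers, with counts on the bars; dotted lines mark the share of all genes tested, 5.64% and 4.88%. The sulfotransferases, Kupffer cell markers and interferon-stimulated genes have bars to the right only, and the acute-phase, complement and serpin lists lie mostly to the left.

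Cytochromes P450 of families 1 to 3, which oxidise steroids, bile acids and drugs, were the largest enzyme group with a sex difference. Of 45 tested genes, 18 were called higher in females and 3 higher in males, and 17 and 3 of these were called in every fit without 1 mouse. The Cyp3a genes that are classed as female-specific were at or near 0 in all males. Cyp3a41a (chromosome 5, 145694049 to 145720136, minus strand) measured 172, 120.1, 169.7, 40.6 and 130.3 CPM in females and had no count in males, at least 3190-fold higher. Cyp3a16 measured 92.9, 27.4, 142, 2.06 and 93.0 CPM and likewise had no count in males, at least 1820-fold higher. Cyp3a44 measured 120.1, 70.8, 133, 25.2 and 94.0 CPM, against 2 counts over the 4 males, a ratio of 3360 with a 95% counting interval of 930.0 to 27800. Female 4 was the lowest female in all 3 of these genes, and in Cyp3a16 it lay far below the next. The intervals and bounds cover counting error only.

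The Cyp2 genes with higher female levels included several that males also expressed. Cyp2c69 measured 613, 493, 738, 449 and 376 CPM in females and 0.595, 1.40, 1.34 and 7.65 CPM in males (log2 fold change 7.55, SE 0.64, adjusted p = 1.34e-05). Cyp2c40 measured 492, 519.9, 448, 438 and 374 CPM in females and 1.91, 5.19, 2.57 and 11.98 CPM in males (log2 fold change 6.37, SE 0.48, adjusted p = 5.62e-06). In both genes male 4 was the highest male. Cyp2a22 (4.74, SE 0.28), Cyp2g1 (3.35, SE 0.38) and Cyp2c39 (3.13, SE 0.23) followed, then Cyp2c37 (1.70, SE 0.19) and Cyp2c38 (1.63, SE 0.20). Abundant P450 genes without an edgeR call included Cyp2e1, the ethanol-oxidising enzyme (-0.08, adjusted p = 0.861), Cyp3a11 (-0.47, adjusted p = 0.076) and Cyp1a2 (0.53, adjusted p = 0.0858); these 3 were chosen after their values were seen. DESeq2 called Cyp3a11 and Cyp1a2 (adjusted p = 0.0198 and 0.0392), and edgeR called Cyp3a11 without female 4 and Cyp1a2 without male 1 or without the filter on low counts (adjusted p = 0.0403, 0.012 and 0.0422).

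The 3 members higher in males were Cyp2d9, Cyp2u1 and Cyp2j9. Cyp2d9, a testosterone hydroxylase, measured 71.3, 66.1, 39.6, 77.8 and 44.2 CPM in females and 2048, 1194, 659 and 950.4 CPM in males (log2 fold change -4.34, SE 0.32, adjusted p = 5.12e-06). Cyp2u1, a fatty acid hydroxylase, measured 4.50, 5.25, 4.76, 4.46 and 4.27 CPM in females and 21.8, 33.9, 26.8 and 32.1 CPM in males (log2 fold change -2.62, SE 0.14, adjusted p = 2.01e-07). Both were separated between the sexes with room to spare, and the males varied more in Cyp2d9 than in Cyp2u1. Cyp2j9 differed least (log2 fold change -1.06, SE 0.19, adjusted p = 0.00469).

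The sulfotransferases, which add sulfate to steroids, bile acids and amines, were almost uniformly higher in females. Of 14 tested, 11 were called higher in females, none higher in males, and 13 had a log2 fold change above 0. Sult3a1, an amine sulfotransferase, measured 154, 145, 132, 109 and 78.4 CPM in females and 0.238, 0.112, 0 and 0 CPM in males (log2 fold change 10.49, SE 0.42, adjusted p = 1.96e-08). Sult2a1 measured 88.4, 31.2, 53.8, 23.4 and 193 CPM in females and 0, 0.168, 0.107 and 0 CPM in males (log2 fold change 10.07, SE 1.01, adjusted p = 6.97e-05). Sult2a2 measured 45.4, 23.8, 37.5, 21.8 and 76.1 CPM in females against 1 count over the 4 males, a ratio of 3140 with a 95% counting interval of 563 to 124000. Female 5 was the highest and female 4 the lowest in both Sult2a genes. Sult2a5 and Sult3a2 had no count in males and were at least 173-fold and at least 109-fold higher in females. The broadly expressed Sult1a1 differed less, with 639, 545, 528, 648 and 651 CPM in females and 389.9, 306, 472 and 364 CPM in males (log2 fold change 0.66, SE 0.13, adjusted p = 0.0101).

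Flavin monooxygenases oxidise nitrogen and sulfur in drugs, and 3 of 5 tested were called higher in females. Fmo4 was higher in females (log2 fold change 0.73, SE 0.13, adjusted p = 0.00493), and the call of Fmo1 (0.65) was lost without any of males 2, 3 and 4 or any of females 1, 2, 3 and 5 (adjusted p up to 0.111). A1bg, a plasma glycoprotein, was higher in females as well, at 26.2 to 262 CPM in females, with females 4 and 5 lowest, and 0.179, 0.447, 2.09 and 0.268 CPM in males (log2 fold change 7.57, SE 0.89, adjusted p = 2.50e-04). Hao2, a peroxisomal hydroxy acid oxidase, measured 24.0, 32.3, 32.6, 29.4 and 19.6 CPM in females and 0.238, 0.0558, 0 and 0.0447 CPM in males (log2 fold change 8.33, SE 0.36, adjusted p = 3.13e-08).

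Male-biased expression was led by Cyp4a12a, Cyp4a12b and the MUPs. Cyp4a12a (chromosome 4, 115299046 to 115332815, plus strand), an omega-hydroxylase of fatty acids, measured 0.0617, 0, 0.203, 0.279 and 0 CPM in females and 137, 123.4, 129.6 and 206 CPM in males (log2 fold change -10.37, SE 0.37, adjusted p = 1.27e-08). Cyp4a12b measured 0, 0.04995, 0.0506, 0.167 and 0 CPM in females and 36.5, 49.2, 65.4 and 87.8 CPM in males (log2 fold change -9.97, SE 0.43, adjusted p = 2.89e-08). No female had more than a few reads of either, and male 4 was the highest male in both. In the whole Cyp4 family the differences were of both directions, with 2 of 13 tested called higher in females and 3 higher in males. Cyp4a10 and Cyp4a14, the classical targets of the fatty acid receptor PPARA, were not called (0.78, adjusted p = 0.174, and 0.48, adjusted p = 0.419). Both were chosen after their values were seen. Without male 1, edgeR called Cyp4a10 higher in females (adjusted p = 0.0361). The count of Cyp4 genes higher in females was 1 without male 2, 3 or 4 or female 2, 3, 4 or 5.

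Of 13 MUP genes tested, 6 were called higher in males, none higher in females, and the median log2 fold change was -2.62. Mup20, which encodes the pheromone darcin, measured 43.0, 29.9, 23.3, 36.3 and 27.3 CPM in females and 1583, 1697, 1910 and 2435 CPM in males (log2 fold change -5.89, SE 0.22, adjusted p = 1.36e-08). Mup7 measured 0.740, 0.250, 0.405, 0.0558 and 0.336 CPM in females and 238, 385, 10.99 and 172 CPM in males (log2 fold change -9.14, SE 0.94, adjusted p = 8.78e-05). Mup20 was even between the males, whereas in Mup7 male 3 lay far below the other males. Mup21 (log2 fold change -4.47, SE 0.22, adjusted p = 1.01e-07) and Mup3 (log2 fold change -1.45, SE 0.18, adjusted p = 4.59e-04) were called as well. Male 3 was the lowest male in 44.4% of the 27 called male-biased genes, against 24.6% of all genes tested, and without it 11 MUP genes were called in place of 6. Mup11 (-5.08) and Mup14 (-6.23) were called on counts but not on FPKM values.

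Several of the largest differences on the male side were outside these families. Scara5, a receptor that takes up ferritin, measured 0.123, 0, 0.101, 0 and 0 CPM in females and 18.9, 26.8, 21.3 and 31.3 CPM in males (log2 fold change -8.97, SE 0.37, adjusted p = 2.47e-08). Tff3, a secreted trefoil peptide, measured 0.123, 0.0999, 0.405, 0 and 0.0480 CPM in females and 3.10, 4.02, 35.2 and 47.1 CPM in males (log2 fold change -7.29, SE 1.04, adjusted p = 0.00114), and Asns, which makes asparagine, measured 0.370, 0.350, 0.203, 0.391 and 0.0480 CPM in females and 3.69, 3.24, 39.5 and 47.8 CPM in males (log2 fold change -6.45, SE 0.95, adjusted p = 0.00145). The males were even in Scara5, whereas in Tff3 and Asns males 3 and 4 lay far above males 1 and 2, and all males lay above all females.

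Among secreted proteins of the serpin and complement lists, more genes were called higher in males than in females, and most were not called. Serpina1e, of the antitrypsin family, measured 69.2, 96.2, 102, 69.0 and 212 CPM in females and 6053, 3676, 11450 and 15390 CPM in males (log2 fold change -6.38, SE 0.50, adjusted p = 7.29e-06). Of 22 serpins and related plasma proteins tested, 6 were called higher in males and 1 higher in females. Serpina3k was the most abundant of them, at 5321, 4838, 5737, 5046 and 3634 CPM in females and 9472, 8239, 10780 and 12670 CPM in males (log2 fold change -1.06, SE 0.17, adjusted p = 0.00231), without overlap. The call higher in females, Serpina3f (1.11), was lost without any of males 1, 3 and 4 or any of females 1, 2 and 5 (adjusted p up to 0.0872), and its log2 fold change on FPKM values was -0.09.

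Of 25 complement genes, 8 were called higher in males and 3 higher in females, and 7 and 2 of them in every fit without 1 mouse. C6, a part of the membrane attack complex, measured 16.4, 16.8, 13.2, 12.2 and 10.5 CPM in females and 169.8, 218, 293 and 371 CPM in males (log2 fold change -4.25, SE 0.23, adjusted p = 2.21e-07). C8a, another part of this complex, measured 112, 114, 134, 116 and 86.6 CPM in females and 418, 725, 869.7 and 866 CPM in males (log2 fold change -2.68, SE 0.20, adjusted p = 5.85e-06). Each lay far higher in every male than in any female. C1qa and C1qc, which macrophages make, were higher in females and are described with the macrophage markers. C4a was higher in males on counts (log2 fold change -3.67, SE 0.24, adjusted p = 1.68e-06), but not on FPKM values (adjusted p = 0.83), and it has the close copy C4b.

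Enzymes of steroid metabolism went in both directions, with 6 of 26 called higher in females and 4 higher in males. Hsd3b5, a male-specific ketosteroid reductase, measured 5.98, 6.24, 5.01, 1.78 and 0.480 CPM in females and 102, 82.9, 40.9 and 108 CPM in males (log2 fold change -4.42, SE 0.49, adjusted p = 1.62e-04). Females 4 and 5 were the lowest of all mice, and the males lay above all females. Hsd3b2 was higher in males by less (log2 fold change -1.38, SE 0.14, adjusted p = 5.60e-05). Cyp17a1, which makes androgen precursors, was higher in females, at 399, 302, 289.5, 293 and 413 CPM against 58.3, 45.3, 106 and 73.8 CPM in males (log2 fold change 2.27, SE 0.23, adjusted p = 7.33e-05). Cyp21a1, a steroid hydroxylase of the adrenal cortex, had 3 counts over the 5 females and 1.31, 0.614, 1.12 and 4.61 CPM in males, a ratio of 98.2 with a 95% counting interval of 26.7 to 818; it was not called on FPKM values.

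Of 18 genes of bile acid synthesis, 3 were called higher in females and 2 higher in males. The shares were 16.7% and 11.1%, against 5.64% and 4.88% of all genes tested. Cyp7b1, the oxysterol hydroxylase of the alternative pathway, measured 31.4, 28.1, 26.5, 21.4 and 23.4 CPM in females and 78.3, 94.2, 70.2 and 162 CPM in males (log2 fold change -1.95, SE 0.22, adjusted p = 1.64e-04). Scp2, which encodes the thiolase that shortens the side chain and a sterol carrier, was also higher in males (log2 fold change -1.14, SE 0.12, adjusted p = 9.81e-05). Akr1d1, a steroid reductase of the same pathway, was higher in females (log2 fold change 0.67, SE 0.11, adjusted p = 0.00262). Cyp7a1, the rate-limiting enzyme of the classical pathway, measured 150.4, 179, 119, 83.7 and 492 CPM in females and 198, 41.6, 217 and 231 CPM in males, and the sexes were not separated (log2 fold change 0.26, SE 0.53, adjusted p = 0.795; named after its values were seen).

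Among conjugating enzymes, 6 of 17 UDP-glucuronosyltransferases were called higher in females and 4 higher in males, and 6 of 22 glutathione transferases higher in females and 2 higher in males. Gstp1, the Pi-class transferase, measured 205, 197, 161, 226 and 225 CPM in females and 1640, 1244, 1271 and 1938 CPM in males (log2 fold change -2.90, SE 0.16, adjusted p = 2.53e-07). Gstt3 was higher in females (log2 fold change 1.25, SE 0.18, adjusted p = 0.00118). Ces3a, a lipid and drug esterase, was the carboxylesterase called higher in males (log2 fold change -1.28, SE 0.15, adjusted p = 1.96e-04), and of 13 tested 2 were called higher in females (1 without male 4). The count of UDP-glucuronosyltransferases higher in males was 2 without male 2 or 4 or female 4, and that of glutathione transferases was 1 without male 3 or 4 or female 1, 3 or 5.

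Of 34 hepatocyte transporters, 6 were called higher in females and 4 higher in males. The shares were 17.6% and 11.8%, against 5.64% and 4.88% of all genes tested. Without male 1 the count higher in females was 10. Slc22a26, an organic anion transporter, measured 196, 124, 189, 128 and 162 CPM in females and 2.14, 2.23, 4.88 and 2.37 CPM in males (log2 fold change 5.78, SE 0.27, adjusted p = 6.39e-08). Slc22a27, a neighbour of the same family, was also higher in females (log2 fold change 4.76, SE 0.30, adjusted p = 1.14e-06), and Slc22a28 next to both was higher in males, at 0.432, 0.250, 0.911, 1.17 and 0.336 CPM in females and 7.26, 11.6, 19.4 and 13.6 CPM in males (log2 fold change -4.38, SE 0.38, adjusted p = 1.91e-05). Thus transporters of a single gene cluster were separated between the sexes in opposite directions. Slco1a1, which takes up organic anions, measured 47.5, 88.8, 73.7, 57.6 and 30.0 CPM in females and 328, 286, 150.5 and 266 CPM in males (log2 fold change -2.11, SE 0.29, adjusted p = 7.72e-04). Slc10a2, the apical bile acid transporter, was higher in males as well (log2 fold change -2.08, SE 0.30, adjusted p = 0.00115).

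In lipid metabolism the largest differences were in single enzymes. Elovl3, an elongase of very long fatty acids, measured 1.60, 1.55, 1.77, 1.51 and 0.480 CPM in females and 36.6, 193, 84.1 and 85.7 CPM in males (log2 fold change -6.18, SE 0.47, adjusted p = 6.14e-06). Pnpla3, a lipid droplet protein linked to fatty liver, measured 21.6, 50.9, 25.9, 33.7 and 49.0 CPM in females and 5.30, 5.81, 4.18 and 1.79 CPM in males (log2 fold change 3.11, SE 0.34, adjusted p = 1.61e-04). Both genes were separated without overlap. Of 25 lipogenic genes, 3 were called higher in females and only Elovl3 higher in males; the count higher in females was 7 without male 1, 1 without male 3 or 4 or female 2 or 5 and 6 without female 3. Vldlr, a receptor for triglyceride-rich lipoproteins, was higher in females, at 10.9, 10.2, 10.98, 10.1 and 10.9 CPM in females and 2.32, 3.69, 4.93 and 2.37 CPM in males (log2 fold change 1.68, SE 0.20, adjusted p = 3.09e-04), and so was Lipc, the hepatic lipase (log2 fold change 0.87, SE 0.17, adjusted p = 0.00941). Of 22 genes of lipid uptake and droplets, 3 were called higher in females (5 without male 1) and 1 higher in males (2 without male 2 and 0 without male 4 or female 1, 2, 3 or 4).

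All 23 sterol biosynthesis genes tested had a log2 fold change above 0, with a median of 0.52, and 6 of them were called higher in females; without male 2 the count was 13. Mvd, a decarboxylase of the mevalonate pathway (log2 fold change 1.13, SE 0.19, adjusted p = 0.00327), and Sc5d, a sterol desaturase (log2 fold change 0.61, SE 0.13, adjusted p = 0.0137), were called in all 9 fits without 1 mouse. Of 32 fatty acid oxidation genes, the peroxisomal enzyme gene Ehhadh was called higher in females (log2 fold change 0.69, SE 0.14, adjusted p = 0.00865) and Cpt2, which acts in mitochondrial import, higher in males (log2 fold change -0.39, SE 0.08, adjusted p = 0.0113). These calls were 3.12% of the list in each direction, against 5.64% higher in females and 4.88% higher in males over all genes tested. Without male 1, 8 genes of this list were called higher in females.

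Other hepatocyte programmes differed in few members or none. Among 18 apolipoprotein genes, Apoc3, which slows the clearance of triglycerides (log2 fold change 0.59, SE 0.17, adjusted p = 0.0424), and Apoa4 (log2 fold change 1.10, SE 0.27, adjusted p = 0.0229) were higher in females, but Apoc3 lost its call without any of males 2, 3 and 4 or any of females 1, 3, 4 and 5 (adjusted p up to 0.114) and Apoa4 without any of males 2, 3 and 4 or female 1 (adjusted p up to 0.0753). Among 21 coagulation genes, F7, of the extrinsic pathway, was higher in females (0.36, adjusted p = 0.0222) and the anticoagulant Pros1 higher in males (-0.59, adjusted p = 0.029), and the calls were lost without any of males 2, 3 and 4 or female 5 (adjusted p up to 0.0704) and without any of males 3 and 4 or any of females 1, 2, 3, 4 and 5 (adjusted p up to 0.0871) respectively. Of 25 genes of glucose metabolism, 1 was called higher in females (5 without male 1 and 0 without male 3 or 4 or female 1, 2 or 4), and of 25 genes of the urea cycle and amino acid metabolism 2 were called higher in males (1 without male 3 or female 1 or 2 and 0 without male 4). None of the latter was called higher in females by edgeR, although 4 had an unadjusted p under 0.05, DESeq2 called 3, and the count was 2 without male 1 and 1 without male 2 or female 3. No member of the circadian clock list (19 tested) or the cell cycle list (17 tested) was called by edgeR or DESeq2, and 4 clock and 3 cell cycle genes had an unadjusted p under 0.05. Circadian genes called higher in males numbered 1 without male 1 or 3 or female 4, and 1 cell cycle gene was called without male 1. These mice were killed in the morning, and the time within the morning is not given for each. Among 17 pericentral and Wnt target genes, 4 were called higher in females, with Rhbg, an ammonia transporter (log2 fold change 0.99, SE 0.19, adjusted p = 0.00767), and Nkd1, a Wnt inhibitor (log2 fold change 0.98, SE 0.17, adjusted p = 0.00439), among the 3 kept in all fits without 1 mouse. These counts can be read against 5.64% higher in females and 4.88% higher in males over all genes tested.

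Acute-phase proteins, which hepatocytes secrete during inflammation, were higher in males, but not in all males alike. Of 22 tested, 10 were called higher in males and 2, Hamp2 and Orm3, higher in females. Saa1, a serum amyloid protein, measured 12.8, 12.6, 24.9, 28.8 and 17.6 CPM in females and 20.5, 779, 2625 and 828 CPM in males 1 to 4 (log2 fold change -5.78, SE 0.91, adjusted p = 0.00228). Saa2 measured 8.69, 5.54, 15.6, 18.6 and 12.1 CPM in females and 8.39, 648, 2072 and 453 CPM in males (log2 fold change -6.03, SE 1.02, adjusted p = 0.00344). Male 1 lay within the female range of both genes, whereas males 2, 3 and 4 were far above every female, with male 3 highest. Lcn2, which binds bacterial iron carriers, was likewise highest in male 3, at 8.45, 10.5, 7.49, 9.71 and 7.01 CPM in females and 6.79, 59.6, 235 and 35.0 CPM in males (log2 fold change -3.28, SE 0.70, adjusted p = 0.0126). Hp, the haemoglobin scavenger haptoglobin, was higher in all 4 males, at 2126, 1484, 1897, 2222 and 2066 CPM in females and 2861, 5215, 10000 and 5448 CPM in males (log2 fold change -1.58, SE 0.28, adjusted p = 0.0045), and Hpx, which binds haem, likewise (log2 fold change -1.19, SE 0.27, adjusted p = 0.0158). Orm2 measured 3.21, 36.5, 68.4 and 21.9 CPM in males, with male 1 below the female range of 5.47 to 10.5 CPM and the others above it, and lost its call without any of males 2, 3 and 4 or any of females 1, 2, 3, 4 and 5 (adjusted p up to 0.107). On FPKM values Saa1, Saa2, Lcn2, Orm2 and Hpx were not called (adjusted p from 0.0531 to 0.252). On these values 2 genes of the list were called higher in males in place of 10. Whether inflammation in single males took part in these differences was not tested.

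Orm3 had the opposite direction to Orm2, its neighbour among the orosomucoid genes. It measured 17.02, 18.5, 12.2, 13.6 and 14.4 CPM in females and 2.62, 3.69, 0.965 and 1.12 CPM in males (log2 fold change 2.88, SE 0.32, adjusted p = 1.62e-04). In young male 5, of which only FPKM values could be read, Saa1 stood at 26520 FPKM, against 43.2 to 5783 in the other 4 males and 27.4 to 66.2 in females.

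**Figure D4:**
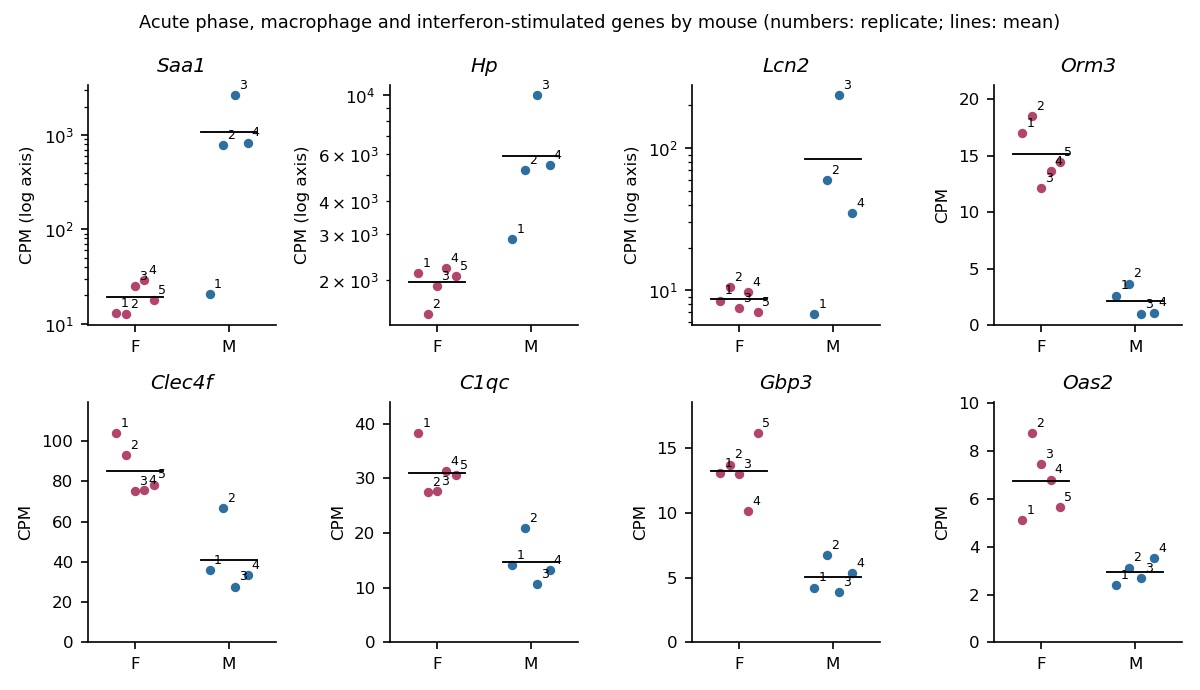
CPM of acute-phase genes (Saa1, Hp, Lcn2, Orm3), macrophage genes (Clec4f, C1qc) and interferon-stimulated genes (Gbp3, Oas2) in each young vehicle mouse. Replicate numbers stand beside the points, and lines are group means. The axis is logarithmic for Saa1, Hp and Lcn2 and linear for the other genes. Male 1 lies at or below the level of the females in Saa1 and Lcn2, and males 2, 3 and 4 lie above them.

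Several markers of liver cells other than hepatocytes were called higher in females. In whole liver, fewer cells of a type and less RNA per cell cannot be told apart. Of 9 Kupffer cell markers tested, 6 were called higher in females, and their summed level was 344, 275, 245, 242 and 257 CPM in females 1 to 5 and 118, 231, 107 and 117 CPM in males 1 to 4. Male 2 came close to the females, and the other males lay at less than 120 CPM. Clec4f, the lectin that defines mouse Kupffer cells, measured 104, 93.0, 75.2, 75.8 and 78.3 CPM in females and 35.8, 66.7, 27.7 and 33.5 CPM in males (log2 fold change 1.06, SE 0.22, adjusted p = 0.0115). C1qa (log2 fold change 0.85, SE 0.16, adjusted p = 0.00736), C1qc (log2 fold change 1.08, SE 0.18, adjusted p = 0.00266) and Cd68 (log2 fold change 0.95, SE 0.19, adjusted p = 0.00812) were higher in females too; C1qc belongs to the complement list. The other calls were lost without some mice, Csf1r without any of males 1, 3 and 4 or any of females 1, 2, 4 and 5 (adjusted p up to 0.103). Cd5l lost its call without any of males 1, 3 and 4 or any of females 1, 2, 3 and 5 (adjusted p up to 0.109). C1qb lost it without any of males 3 and 4 or female 1 (adjusted p up to 0.0663). The Kupffer count was 3 without male 3 or 4 or female 1. On FPKM values with young male 5, an alternative chosen after seeing the data, limma called none of Clec4f, C1qa, C1qc and Cd68 (adjusted p from 0.25 to 0.446).

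Among 8 endothelial markers, 3 were called higher in females, and among 8 stellate cell markers, 2. The shares were 37.5% and 25.0%, against 5.64% of all genes tested. The endothelial count was 1 without male 4. The summed endothelial level was 213 to 287 CPM in females and at a median of 185 CPM in males, all of which lay below the lowest female, and the stellate level was 205 to 297 and 134 to 204 CPM. Clec4g, of the sinusoidal endothelium (log2 fold change 0.74, SE 0.11, adjusted p = 0.00145), and the stellate genes Reln (log2 fold change 0.74, SE 0.15, adjusted p = 0.00834) and Dcn (log2 fold change 0.60, SE 0.12, adjusted p = 0.00927) were called in all fits without 1 mouse, and on FPKM values Reln was not called (adjusted p = 0.0824). Of 5 cholangiocyte markers 2 were called. This count was 1 without male 1, 2 or 3 or female 2 and 0 without male 4 or female 1, 3, 4 or 5. The summed levels were 41.7 to 48.4 CPM in females and 25.8 to 42.1 CPM in males. Hepatocyte markers were abundant in both sexes, at 113700 to 122400 and 103900 to 119200 CPM, and 1 of 9 was called, higher in males. That call was made in no more than 1 of the 9 fits without 1 mouse. Of 3 monocyte and dendritic cell markers 1 was called higher in females. Only 6 B cell, 1 T or NK cell, 1 neutrophil and 4 erythroid markers had enough counts to be tested. None of them was called by edgeR or DESeq2 or had an unadjusted p under 0.05. Of 7 pancreas markers, 5 had no count in any of the 9 mice, and the same held for the neutrophil marker Ly6g and the adipose marker Lep. The part of these cells in the other results was not tested.

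Of 25 interferon-stimulated genes, 11 were called higher in females and none higher in males, with a median log2 fold change of 0.31. Gbp3, an interferon-induced GTPase, measured 13.1, 13.7, 13.01, 10.2 and 16.2 CPM in females and 4.23, 6.76, 3.86 and 5.37 CPM in males (log2 fold change 1.39, SE 0.18, adjusted p = 5.62e-04). Oas2, a sensor of viral RNA, measured 5.12, 8.74, 7.44, 6.80 and 5.66 CPM in females and 2.38, 3.13, 2.68 and 3.53 CPM in males (log2 fold change 1.20, SE 0.19, adjusted p = 0.00231), and Oasl2 was higher in females as well (log2 fold change 1.12, SE 0.23, adjusted p = 0.00949). The differences were moderate in size, and 6 of the 11 were called in every fit without 1 mouse. On FPKM values 7 genes were called. The count was 7 without male 3 or female 1, 4 or 5 and 6 without male 4. The 8 tested MHC class II genes had no call by edgeR and 1 by DESeq2, 4 had an unadjusted p under 0.05, and 4 were called higher in females without male 2.

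Levels can be compared between genes only per transcript length, as TPM (counts per annotated exon length, scaled to the same sum in each mouse). The called genes with the highest levels were plasma proteins. Serpina3k had a mean of 5554 TPM in females and 11790 TPM in males, and Mup3 had 4345 and 12100 TPM. Hpx stood at 4323 and 9896 TPM and Hp at 2824 and 8513 TPM. The most unequal of the abundant genes was Serpina1e, at 159 TPM in females and 13250 TPM in males, where it was the highest of all called genes. In females, Hamp2 reached 3014 TPM against 158 in males, and Cyp2a4 reached 1274 TPM against 1.78. Thus Cyp2a4, close to absent in males, was among the abundant transcripts of females. Serpina1e and Hamp2 were also present in the lower sex, at a far lower level.

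Many of the largest differences lay side by side on the chromosomes. Of the 59 called genes with an absolute log2 fold change of at least 4, 35 had another such gene within 500000 bases, in 13 groups, and in 11 of these groups all genes had the same direction. A group on chromosome 5, from 145436309 to 145805874, held 5 genes of the Cyp3a family, all higher in females, among them Cyp3a16, Cyp3a41a and Cyp3a44. On chromosome 7, 4 Sult2a genes lay between 13623967 and 14123044, and Cyp2b13, Cyp2b9 and Cyp2a4 with 2 unnamed gene models lay between 26061497 and 26315088, all higher in females. The mixed groups were Slc22a26, Slc22a27 and Slc22a28 on chromosome 19 (7781041 to 8131982) and Hsd3b5 with Hao2 on chromosome 3 (98618634 to 98893239). Positions are in GRCm38, the build mm10 of the counts, and the threshold chose these genes by their size, so the grouping is a description.

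The old vehicle mice share no animal with the young ones. Among them, 2446 of 13650 autosomal genes were called (17.9%), 1152 higher in females (8.44%) and 1294 higher in males (9.48%). Without 1 mouse, 1430 to 2417 were called, and the count fell by more than 1.5 times without old female 1 (1563), 2 (1554) or 4 (1430). Of 1384 young-called genes that could be tested there, 1136 (82.1%) had the same direction in old mice, against 60.4% of all 13143 genes tested at both ages. A call in the same direction was made for 480 of them (34.7%), in the opposite direction for 22, and the share was 33.1% for genes higher in young females and 36.5% for genes higher in young males. Conversely, 19.6% of the old-called genes were called in young mice. Across 1365 young-called genes with more than 3 counts in each sex at each age, Pearson's r between the young and old log2 fold changes was 0.797 (0.569 over all 13123 such genes); genes are not independent replicates, and each value is a description.

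**Figure D5:**
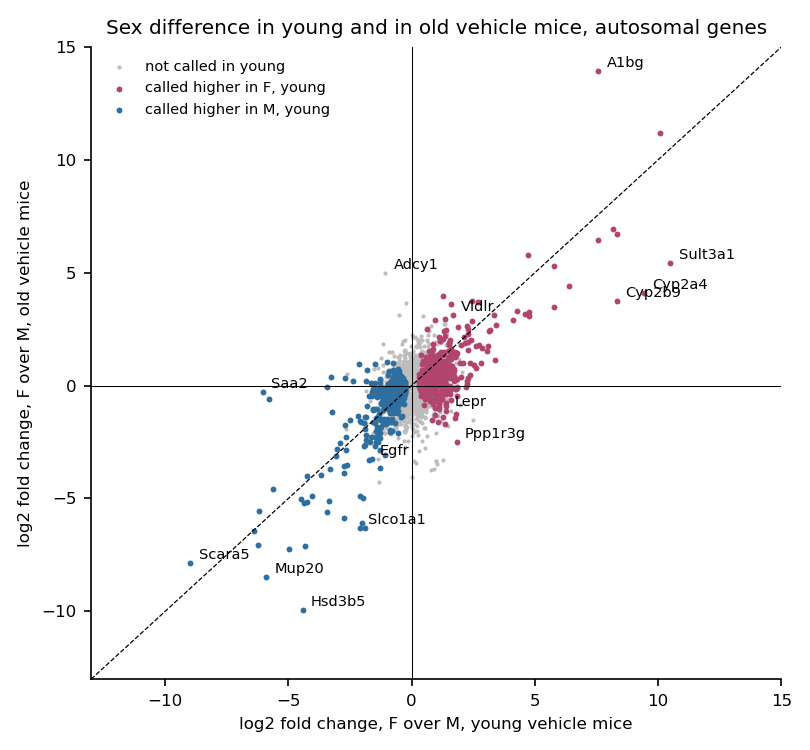
Log2 fold change of females over males in young (horizontal axis) and old (vertical axis) vehicle livers for autosomal genes with more than 3 counts in each sex at each age, with genes called in young mice coloured; the dashed line marks equal differences. Most called genes lie in the quadrants of equal direction, with Slco1a1, A1bg and Cyp2b9 among those far from the line.

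A model of the 4 vehicle groups tested whether the sex difference itself differed between young and old mice, which also differ in substrain label. The old females and old males differ in age label as well. Of 14268 genes, 557 (3.9%) passed. Without 1 mouse the count was 204 to 1160, with 1160 without young male 1 and 204 to 355 without young male 3 or 4, young female 1 or 2, old male 4 or 5, or old female 1, 2 or 4. Among the young-called genes, 179 (12.7%) passed, and in 156 of them the change went against the young direction. The young difference that chose these genes enters the change with the opposite sign, which favours such a direction. These 2 counts are therefore a description. Cyp2b13, absent in young males, measured 0.563, 2.10, 6.35 and 4.46 CPM in the 4 old males and 88.8, 38.0, 50.7 and 16.5 CPM in the old females, so that every old male lay above every young male and every old female below every young female. For Cyp2b9 the change was -4.59 (adjusted p = 0.0141). A1bg went the other way, with 2390, 1611, 1263 and 5357 CPM in old females and 0.0512, 0.227, 0.1701 and 0.208 CPM in old males, a change of 6.37 (adjusted p = 0.0259) that did not pass without old male 4 or young male 3 (adjusted p up to 0.161). Slco1a1 was further apart in old mice, at 3.53, 2.93, 2.40 and 3.35 CPM in old females and 68.0, 316, 201 and 386 CPM in old males (-4.20, adjusted p = 0.00146).

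Adcy1, an adenylyl cyclase, was not called in young mice (log2 fold change -1.07, SE 0.54, adjusted p = 0.224) and measured 35.1, 12.8, 12.2 and 48.4 CPM in old females and 1.43, 0.6254, 0.680 and 0.623 CPM in old males, a change of 6.06 (adjusted p = 0.00139). Saa2 had no sex difference past the test in old mice (-0.27, adjusted p = 0.653), and its change was 5.77 (adjusted p = 0.0141). Lepr changed by -2.48 (adjusted p = 0.0208), away from the higher female level of the young mice. For Cyp4a12a and Cux2 the log2 fold changes in old mice were -11.78 and 5.32. In neither did a change between young and old mice pass the test (adjusted p = 0.802 and 0.82). Of the female-biased genes of the list above, 45 were tested in old mice and 38 of them were called higher in old females. Of the male-biased genes, 36 were tested in old mice and 27 of them were called higher in old males. Of the 25 interferon-stimulated genes, 11 were called higher in young females. In old mice 2 of the 25 were called higher in males, against 9.48% of all genes tested there. Of 9 Kupffer cell markers 3 were called higher in old females, against 8.44% of all genes tested.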

How the data were processed

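RNA-seq (polyadenylated RNA, 1 library per mouse) of whole liver was analysed from 9 young vehicle mice, with 8 old vehicle mice for comparison. According to the labels and the study's methods, STAR alignments to mm10 were turned into counts per gene with HTSeq, and the authors deposited these counts unnormalised. They also deposited FPKM values from Cufflinks, in which empty cells were read as 0. Tool versions, the annotation and the strand setting of the counting are not given in the sources used here, so reads of overlapping or antisense genes may not be told apart. FPKM sums differ between mice, and 0 columns of the count table were left without a sample. The count and FPKM tables used here held no columns of comparisons made by the authors.

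Groups were taken from the labels. Counts were tested with edgeR 4.0.16 in R 4.3.3 (genes kept by filterByExpr at 10 counts, or 15 in total, TMM scaling, quasi-likelihood F test, Benjamini-Hochberg adjustment over all genes tested, FDR under 0.05), in 1 fit for the young mice, 1 for the old mice and 1 with the interaction of sex and age over the 4 vehicle groups. X-linked, Y-linked and mitochondrial genes stayed in the fits and were left out of the counts. CPM were computed on the TMM-scaled libraries, and SE is the log2 fold change divided by the square root of F. Genes without counts in 1 sex are given as a bound at 3 counts over that sex, and those with 1 to 3 counts as a ratio with an exact 95% interval. Chromosome positions are from GENCODE M21 (GRCm38), which held 55240 of the 55421 gene identifiers. DESeq2 1.42.0, limma 3.58.1 on log2(FPKM + 1) and log2(FPKM + 0.1) with FPKM of at least 0.1 in 4 mice, other scaling, no filter, stricter thresholds and fits without 1 mouse each were the alternatives. Python 3.11.15 with scipy 1.17.1 was used for exact permutation tests of library measures. The fitting was tested on simulated data. No replicate pair agreed within sampling noise (chi-square of 20.2 or more per degree of freedom), so none was treated as a repeated deposit.

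The members and gene lists were chosen with earlier results of these data known. Genes were named by rule: all members of the growth hormone and regulator lists, the 10 largest called differences in each direction without overlap and with a mean of at least 1 CPM, the 4 largest called differences per list and direction or the largest difference of a list without a call, the genes that check sex and substrain, the 5 largest called interactions, and the 10 called genes with the highest TPM per sex. Some genes that the rule names are not reported here. Chosen outside this rule, after their values were seen, were Akr1b7, C4b, Ccnd1, Csf1r, Cyp1a2, Cyp2a22, Cyp2a5, Cyp2b9, Cyp2c37, Cyp2c38, Cyp2c39, Cyp2c40, Cyp2c69, Cyp2e1, Cyp2g1, Cyp3a11, Cyp4a10, Cyp4a14, Cyp7a1, Dct, Eci3, Gm4956, Hamp, Hao2, Lep, Ly6g, Mup21, Nat8, Nat8f5, Nt5e, Ptgds and Sult1a1.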

Additional observations from a re-analysis of the deposited data

Results flagged for a closer look

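Young male 5 has only FPKM values here and entered none of the count comparisons, and its values stood out from the other males. Beside Saa1 at 26520 FPKM, it had Saa2 at 28730, Lcn2 at 2522, Orm2 at 3634 and Hp at 17090 FPKM. Its levels of male-biased genes were 1.97 FPKM for Cyp4a12a, where the other males had 53.6 to 90.1 and the females at most 0.123, 1013 FPKM for Mup20 (3604 to 5607 in the other males and 44.0 to 79.9 in females), 1.59 FPKM for Hsd3b5 and 11.6 FPKM for Elovl3. It lay above all females in 20 of the 27 called male-biased genes (74.1%), and in 401 of the 656 genes called higher in males (61.1%), against 24.7% of all genes tested. It lay below all females in 34 of the 38 called female-biased genes (89.5%), against 37.7% of all genes tested. These 5 acute-phase genes were thus highest in this male, and Cyp4a12a, Mup20, Hsd3b5 and Elovl3 were lower in it than in the other 4 males.

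Of 141 named genes that were tested, 23 had a sex difference that differed between young and old mice in the interaction test of edgeR. Over all genes tested, 3.9% passed. Genes were named partly for large young differences and for large called interactions, so this count is a description. Each value is a change of the log2 fold change of females over males from young to old. In 11 of the 23 genes the change passed in every fit without 1 mouse. Cyp2b13 reached 6.35 CPM in the highest old male and had no count in young males. The change was -4.59 in Cyp2b9, -2.56 in Mup20, -4.20 in Slco1a1, -1.01 in Hsd3b2, -2.48 in Lepr, 6.06 in Adcy1, 1.45 in Vldlr, 0.77 in Cpt2, 5.17 in Saa1 and 5.77 in Saa2. In the other 12 it was lost without at least 1 mouse. These were A1bg (6.37), Cyp2d9 (-2.73, lost without old female 4), Egfr (-1.61), Hp (1.43), Lcn2 (3.66), Orm2 (3.09), Oasl2 (-2.06), Cyp4a10 (1.86), Cyp4a14 (2.62), C4b (0.84), Ptpn11 (0.38) and Sc5d (-0.64). In the acute-phase genes Saa1, Saa2, Hp, Lcn2 and Orm2 the higher male level of the young mice was not called in old mice.

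Single mice lay far from the rest of their group in 20 cases among 279 groups of mice examined, where a distant mouse is expected by chance in about 1 of 20 groups (Dixon's criterion on CPM). Among the females, mouse 5 was apart in Cyp7a1 (492 CPM), Serpina1e (212) and Elovl3 (0.480), mouse 3 in Socs2 (44.4), Socs3 (6.99) and Gm50136 (0.0506, a single count), mouse 1 in Hamp (1462), mouse 2 in Cyp2c37 (389) and mouse 4 in Ccnd1 (16.0). Among the males, mouse 3 was apart in Cyp2a4 (3.75 CPM), Slc22a26 (4.88) and A1bg (2.09), mouse 1 in Apoa4 (291) and Apoc3 (1959), mouse 2 in the macrophage genes Cd5l (54.9) and C1qb (28.2) and in Oasl2 (3.96), and mouse 4 in Cyp4a12a (206), Cyp2c69 (7.65) and Sult2a2 (0.0447, a single count).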

How the results depend on the processing

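The number of young autosomal genes called, 1414 by edgeR, was 830 with the replicate number as a block, 2411 with all 6 groups in 1 fit, 701 and 733 by limma on log2(FPKM + 1) and log2(FPKM + 0.1), 467 on FPKM with young male 5 (an alternative chosen after seeing the data), 463 at an FDR under 0.01 and 422 with an absolute log2 fold change of at least 1. It ranged from 735 to 1808 without 1 mouse. On FPKM with young male 5, acute-phase calls higher in males fell from 10 to 1 (2 on FPKM without it) and interferon calls higher in females from 11 to 3 (7 without it). It stayed within 1.5 times with RLE scaling, without a filter, with autosomal genes alone and by DESeq2 (2023). Genes higher in females made up 66.5% and 67.4% of the FPKM calls, and 68.3% with young male 5. The old count of 2446 was 707 with the block and 843 at an FDR under 0.01, and 1430 to 2417 without 1 mouse. The interaction count of 557 was 1154 by DESeq2, 181 with the block and 47 at an FDR under 0.01, and 204 to 1160 without 1 mouse. The cause of these shifts was not tested, apart from the stricter thresholds and the fold limit, which can only lower a count. Same-numbered young mice of the 2 sexes deviated together with r of 0.178, 0.109, 0.0616 and -0.109. Numbers 1 and 2 correlated best with their own number, and numbers 3 and 4 better with another one. Among old mice r was 0.177, -0.101 and 0.17 for numbers 2, 3 and 4. There, number 3 correlated better with another number, and numbers 2 and 4 best with their own. The check was mixed and cannot decide whether the numbers pair the mice. The main fits left the mice unpaired, as replicates are labelled only as separate mice. With the block, 755 of the 830 genes were also called without it. Over the named genes, 2277 of the values under an alternative kept direction and call, 214 lost the call, 16 gained it and 28 changed sign. Among called genes the sign changed in C4a (0.27 on log2(FPKM + 0.1)) and Serpina3f (-0.09 and -0.15 on log2(FPKM + 1) and log2(FPKM + 0.1), and -0.28 with young male 5). Among genes without a call it changed in Hamp (0.051 on both FPKM scales, 1.33 with young male 5, and -0.27 to 0.10 over the fits without 1 mouse), Cyp7a1 (-0.24 with the block, and -0.36 to 0.46 without 1 mouse), Jak2 (0.022 with the block, and -0.10 to 0.09 without 1 mouse), Igf1 (-0.003 by DESeq2, -0.002 without a filter, and -0.078 to 0.093 without 1 mouse), Cyp2e1 (0.17 with young male 5, and -0.19 to 0.16 without 1 mouse) and Stat5a (-0.065 with young male 5, and -0.044 to 0.26 without 1 mouse). On log2(FPKM + 1), 25 of the named genes lost the call with the same sign, among them those named with this limit in the report. With the block, 12 of the named genes lost the call, among them Lcn2, Rora and Cpt2 (adjusted p = 0.0885, 0.0683 and 0.0645). Of the counts of list members under an alternative, 1291 stayed within 1.5 times and 257 moved further. With 4 males against 5 females, small differences lay below what these data can show, and genes with few counts rest on single reads. Replicates are labelled only as separate mice, and p-values set a difference against the spread between these mice.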

Other observations

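Some genes with a clear sex difference belonged to none of the lists, and those named in this section other than Gm50136 were chosen after their values were seen. Ccnd1, which encodes cyclin D1, a driver of entry into the cell cycle, measured 45.5, 52.5, 45.5, 16.0 and 47.8 CPM in females and 4.41, 6.70, 3.75 and 9.88 CPM in males (log2 fold change 2.73, SE 0.36, adjusted p = 5.57e-04), without overlap, while the cell cycle list had no call. Nt5e, the ectoenzyme that makes adenosine at the cell surface, measured 32.4, 33.9, 50.5, 42.5 and 38.0 CPM in females and 3.69, 7.99, 11.2 and 6.21 CPM in males (log2 fold change 2.44, SE 0.25, adjusted p = 9.56e-05). Eci3, a peroxisomal enoyl-CoA isomerase, ranged from 5.63 to 8.49 CPM in females against 2 counts over the 4 males, a ratio of 254 with a 95% counting interval of 70.0 to 2100. Ptgds, a prostaglandin synthase (2.27, SE 0.22), Dct, known as a melanin synthesis enzyme (2.69, SE 0.29), and Akr1b7, an aldose reductase family member (2.28, SE 0.25), were higher in females as well.

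On the male side, Nat8 and its neighbour Nat8f5, of an N-acetyltransferase family, measured 21.4, 11.2, 7.34 and 9.35 CPM and 13.7, 7.59, 4.13 and 5.86 CPM in males, where male 1 was highest in both, against 0.391 to 0.912 CPM and 0 to 0.599 CPM in females (log2 fold change -4.24, SE 0.35, adjusted p = 1.13e-05, and log2 fold change -4.91, SE 0.52, adjusted p = 1.08e-04). The pseudogene Gm4956 measured 16.6, 17.6, 22.4 and 26.6 CPM in males and 0.223 to 0.678 CPM in females (log2 fold change -5.63, SE 0.24, adjusted p = 2.89e-08). The lincRNA Gm50136, among the 10 largest male differences, had 1 count over the 5 females and ranged from 2.20 to 3.96 CPM in males, a ratio of 313 with a 95% counting interval of 55.6 to 12400.

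Single mice stood at the edge of their group for the classical genes. Female 4 was the lowest female in 18 of the 38 called female-biased genes (47.4%), against 24.0% of all genes tested. Male 4 was the highest male in 17 of the 27 called male-biased genes (63.0%), against 21.0% of all genes. Male 1 was the lowest male in 305 of all 656 genes called higher in males (46.5%), against 31.0%. These shares are descriptions of single animals, and some of the genes share reads.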
